A study of Mus musculus with 163 samples.

Results

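The zona pellucida and sperm-binding genes of the mouse oocyte were described in single oocytes grown in vivo or in culture. The members were the 7 rows of the deposited count table whose Entrez identifiers belong to Zp1, Zp2, Zp3, Izumo1r, Cd9, Cd81 and Astl, out of 21950 genes, and all 7 were found. The study followed female germ cells through a culture protocol to ask which culture step changes the oocyte, and each sample was 1 oocyte profiled by Smart-seq2, a protocol that amplifies polyadenylated RNA of 1 cell into full-length cDNA. There were 2 stages, the oocyte still in its growth phase (GRO) and the oocyte at full size (FGO).

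iPSC-derived oocytes came from the BVSC-iPSC line, a single female line made from adult tail tip fibroblasts that carries Blimp1-Venus and Stella-ECFP reporters. Its germ cells were made by in vitro primordial germ cell (PGC) differentiation (IVP), then aggregated with gonadal somatic cells of E12.5 Swiss Webster embryos for in vitro oocyte differentiation (IVD), and the follicles were brought to full size by in vitro growth (IVG). Some germ cells of the host gonads may have escaped removal, so an aggregate may hold some oocytes of host origin. Gonad-derived oocytes came from dissociated and re-aggregated E12.5 gonads that went through IVD and IVG but not IVP. For 6 dpp FGOs, IVG alone was applied to follicles isolated 6 days post partum (dpp), and in vivo GROs and FGOs were taken from ovaries. There were 23 iPSC-derived GROs, 24 gonad-derived GROs, 24 in vivo GROs, 24 iPSC-derived FGOs, 24 gonad-derived FGOs, 24 6 dpp FGOs and 20 in vivo FGOs. The age and strain of the in vivo donors are not given in the sources used here. All oocytes were freed of their zona and of attached cells before lysis.

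The zona pellucida is the glycoprotein coat that the growing oocyte secretes around itself. In the mouse it is built from ZP1, ZP2 and ZP3, and sperm bind to it before they reach the egg membrane. On that membrane JUNO, the product of Izumo1r, is the receptor for the sperm protein IZUMO1, and the tetraspanins CD9 and CD81 take part in the fusion of the gametes. After fertilization the cortical granules release ovastacin, the metalloprotease encoded by Astl, which cleaves ZP2 so that no further sperm bind.

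On GRCm38, Zp1 (Entrez 22786) lies at chr19:10914296-10920601 on the minus strand, Zp2 (22787) at chr7:120126762-120145291 on the minus strand and Zp3 (22788) at chr5:135980105-135988624 on the plus strand. Astl (215095) lies at chr2:127338639-127357655 on the plus strand and Izumo1r (64931) at chr9:14885814-14903951 on the minus strand. Cd9 (12527) lies at chr6:125460266-125494760 on the minus strand and Cd81 (12520) at chr7:143052750-143067930 on the plus strand. Values are sums over exons. Exons of Cd9 share 218 bases with exons of Gm26728 on the opposite strand, and exons of Cd81 share 30 bases with R74862 on the opposite strand. Whether the counting used strand was not stated, so reads of these partners cannot be told apart from those of Cd9 and Cd81 there. No annotated gene overlapped the other 5 members.

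Promoters are shown because Zp3, Astl and Cd9 had their lower levels in FGOs together, while Izumo1r did not. Each is the stretch of 250 bases before the gene's start in RefSeq (GRCm38.p6), printed 5′ to 3′ on the gene's strand, and capitals mark CANNTG, the E-box letters that the oocyte factor FIGLA and its partners are known to bind. RefSeq gives Astl a pair of starts, and both windows are shown. The windows are chr5:135979855-135980104 for Zp3, chr2:127338389-127338638 and chr2:127341386-127341635 for Astl, chr6:125494761-125495010 for Cd9 and chr9:14903768-14904017 for Izumo1r.
Zp3: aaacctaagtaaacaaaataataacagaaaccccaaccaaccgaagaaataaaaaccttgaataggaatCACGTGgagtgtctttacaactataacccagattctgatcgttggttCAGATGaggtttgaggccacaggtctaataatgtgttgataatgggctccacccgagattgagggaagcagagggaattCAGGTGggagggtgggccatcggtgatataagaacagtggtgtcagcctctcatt
Astl, first window: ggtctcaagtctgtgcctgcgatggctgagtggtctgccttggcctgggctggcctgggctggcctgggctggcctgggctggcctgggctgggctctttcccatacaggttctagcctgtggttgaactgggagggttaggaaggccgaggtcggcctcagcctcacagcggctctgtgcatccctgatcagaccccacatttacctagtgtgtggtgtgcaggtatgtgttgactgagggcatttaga
Astl, second window: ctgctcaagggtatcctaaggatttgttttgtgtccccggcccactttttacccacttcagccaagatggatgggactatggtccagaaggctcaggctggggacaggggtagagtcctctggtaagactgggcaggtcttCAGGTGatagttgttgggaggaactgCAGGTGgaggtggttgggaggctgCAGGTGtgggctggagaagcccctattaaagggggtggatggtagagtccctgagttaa
Cd9: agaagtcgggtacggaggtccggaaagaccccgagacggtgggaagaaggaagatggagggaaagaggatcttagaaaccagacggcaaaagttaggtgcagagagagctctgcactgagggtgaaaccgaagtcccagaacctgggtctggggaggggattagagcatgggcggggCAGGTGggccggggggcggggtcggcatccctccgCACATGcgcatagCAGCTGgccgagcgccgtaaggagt
Izumo1r: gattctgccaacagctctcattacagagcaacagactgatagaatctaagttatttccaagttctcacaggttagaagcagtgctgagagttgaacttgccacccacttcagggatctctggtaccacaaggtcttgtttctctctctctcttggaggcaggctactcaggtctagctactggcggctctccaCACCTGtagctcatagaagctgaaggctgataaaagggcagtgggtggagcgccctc
CANNTG, which reads the same on both strands, occurred 3 times for Zp3, at 181, 134 and 55 bases before the start. The first of these read CACGTG, a form held by 6.02% of the promoters searched. The first window of Astl held it 0 times and the second window 3 times, each time as CAGGTG, a form held by 17.2% on either strand. Zp3 at 55 bases and Cd9 at 73 bases before the start also read CAGGTG. The site of Izumo1r read CACCTG, which is CAGGTG on the other strand. Cd9 held it 3 times and Izumo1r 1 time, at 57 bases before the start. Cd81, whose window chr7:143052500-143052749 is not printed, held it 1 time. Of 32851 promoter windows of the same length, 66.2% held CANNTG at least once and 31.8% held it 2 or more times. TATAAA, searched on both strands, was in 0 of these 6 windows and in 12.4% of all windows. A match of such short letters is a description of the window only. The set of promoter windows used here held no entry for Zp1 and Zp2, so theirs are not printed.

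Before the values, 7 oocytes have to be named that stood apart from their groups. Gonad-derived FGO 19 had a total of 6.95 in units of 1000000 reads, near the median of its group (7.04), but 33.3% of its 7066 genes above 10 CPM (reads per 1000000 counted reads) in the group median were at least 2-fold below that median. Genes with an exonic length of up to 1500 bases had a median log2 difference of -1.17 from the group in this oocyte, and those over 4000 bases one of 0.12. This oocyte was the lowest of its group for 6 of the 7 members, all but Cd81, and for 40.7% of the 7066 genes. The 6 dpp FGO 12 held 1208 CPM of Gja1, the gap junction gene of granulosa cells, where the median of its group was 4.26 CPM. In vivo FGO 19 held 294 CPM of Gja1 against a group median of 6.23 CPM. In vivo FGO 7 had the highest Zp1, Zp3, Cd9 and Astl and the lowest Izumo1r of its group. These 4 oocytes were left out together in an alternative. A wider alternative also left out 3 FGOs with high Cd81, namely 6 dpp FGO 10, with 143 CPM of Gja1, in vivo FGO 16, with 165 CPM of Gja1, and gonad-derived FGO 18, with 44.9 CPM of Gja1 and a sum of theca and stroma markers of 65.4 CPM against a group median of 3.02 CPM. Since these 3 are among the FGOs with most Cd81, leaving them out lowers Cd81 in their groups by construction. In vivo FGO 7 was likewise named for its member values, so leaving it out lowers Cd9 and the zona genes of its group by construction, and in vivo FGO 22, with 439 CPM of Cd9 beside 478 CPM in oocyte 7, was kept.

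In units of 1000000 reads, total counts ran from 2.17 to 13.7 over all oocytes and group medians from 6.66 to 7.16. The oocyte markers Gdf9, Bmp15, Ddx4, Dppa3, Kit, Zar1, Ooep and Npm2 were present in every group, with a summed level of 13116 to 30472 CPM in single oocytes. Of 14 granulosa markers 12 were matched, and their summed group medians lay between 176 and 311 CPM. The 3 blood markers had a median of 0 CPM in all groups. No animal, embryo or culture is named behind an oocyte, so each group counted as 1 sample, no comparison could be tested, and ranges over oocytes describe spread only. The spike-ins added at lysis were not used here, so a CPM is a share of an oocyte's reads and not an amount of RNA per oocyte.

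**Figure D1:**
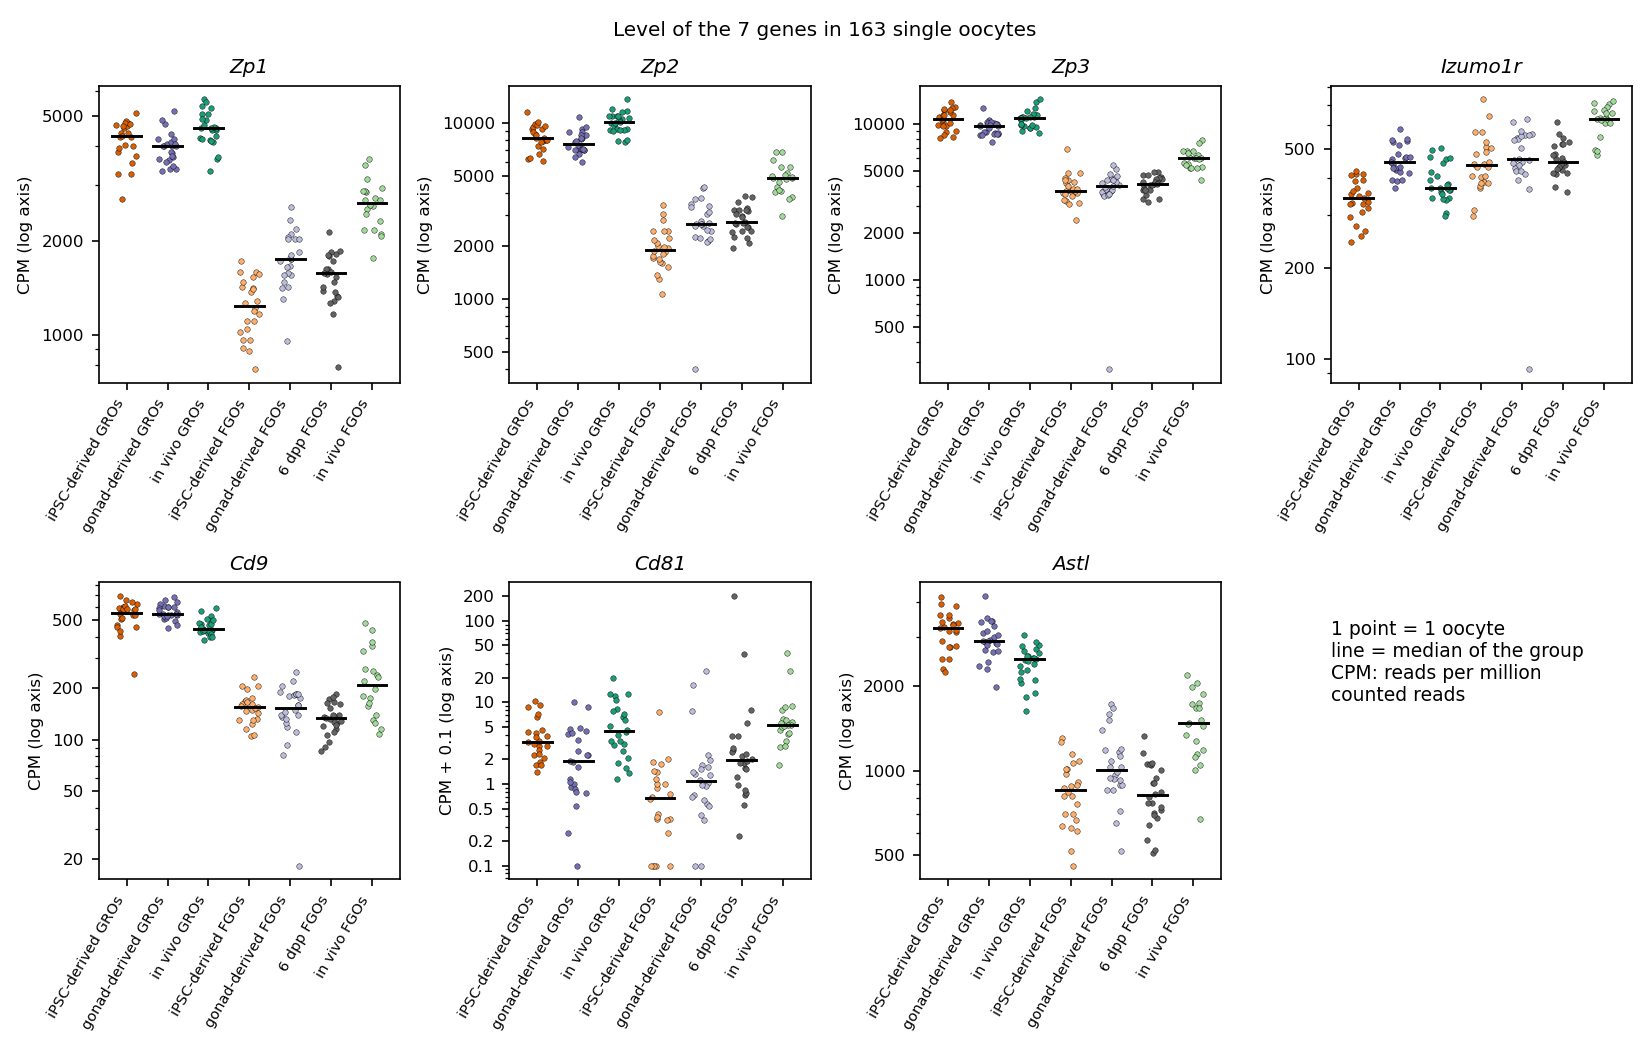
CPM of the 7 genes (vertical axes, log scale) in each oocyte by group (Cd81 as CPM + 0.1), with a line at each group median. Zp1, Zp2, Zp3, Cd9 and Astl had higher medians in all 3 GRO groups than in all 4 FGO groups, Izumo1r did not, and Cd81 reached at most 202 CPM.

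The transcripts of the zona pellucida were among the most abundant of the oocyte. Together, Zp1, Zp2 and Zp3 made up a median of 2.57% of all counted reads in in vivo GROs, 2.36% in iPSC-derived GROs and 2.08% in gonad-derived GROs. In FGOs the median share was 1.35% in vivo, 0.845% after follicle culture from 6 dpp, 0.836% in gonad-derived and 0.684% in iPSC-derived oocytes. Per kb of exonic length, Zp3 had the highest pooled level of all 21950 genes in iPSC-derived and in vivo GROs and the second highest in gonad-derived GROs.

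Zp3, which forms the filaments of the coat together with ZP2, ranged from 8701 over a median of 10938 to 14306 CPM in in vivo GROs. It ranged from 8167 over 10800 to 13743 CPM in iPSC-derived GROs and from 7697 over 9637 to 12684 CPM in gonad-derived GROs. The quartile ranges of neighbouring GRO groups overlapped, so these medians did not differ beyond the spread between oocytes. In vivo FGOs ranged from 4383 over 6069 to 7900 CPM, 6 dpp FGOs from 3172 over 4121 to 4930 CPM and iPSC-derived FGOs from 2418 over 3731 to 6880 CPM. Gonad-derived FGOs ranged from 270 CPM, in oocyte 19, over 3980 to 5413 CPM, and their second lowest value was 3476 CPM. The quartile range of in vivo FGOs lay above those of the 3 cultured FGO groups, which overlapped each other.

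Zp2, the zona protein that is cut by ovastacin, ranged from 7760 over 10019 to 13519 CPM in in vivo GROs, from 6087 over 8223 to 11444 CPM in iPSC-derived GROs and from 5979 over 7568 to 10728 CPM in gonad-derived GROs. In FGOs its median was 4835 CPM in vivo (2958 to 6849), 2722 CPM in 6 dpp FGOs (1951 to 3853), 2657 CPM in gonad-derived FGOs (399 to 4302) and 1894 CPM in iPSC-derived FGOs (1066 to 3416). As a ratio of the highest to the lowest group median, Zp2 covered the widest range of the zona genes. The quartile ranges of in vivo FGOs and iPSC-derived FGOs each stood clear of their neighbours in the order.

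Zp1, which links the filaments, had the lowest level per kb of the zona genes in every group. It ranged from 3339 over 4569 to 5645 CPM in in vivo GROs, from 2724 over 4324 to 5110 CPM in iPSC-derived GROs and from 3327 over 4009 to 5197 CPM in gonad-derived GROs. In FGOs it ranged from 1767 over 2642 to 3639 CPM in vivo, from 956 over 1747 to 2553 CPM in gonad-derived, from 791 over 1573 to 2130 CPM in 6 dpp and from 778 over 1242 to 1726 CPM in iPSC-derived oocytes. The highest iPSC-derived FGO was thus below the lowest in vivo FGO.

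Astl, the gene of ovastacin, was ordered otherwise among GROs. It ranged from 2243 over 3213 to 4159 CPM in iPSC-derived GROs, from 1982 over 2893 to 4189 CPM in gonad-derived GROs and from 1628 over 2491 to 3034 CPM in in vivo GROs. The quartile range of in vivo GROs lay below those of both cultured groups, whereas in vivo FGOs were highest among FGOs. In vivo FGOs ranged from 671 over 1474 to 2188 CPM, gonad-derived FGOs from 517 over 1010 to 1723 CPM, iPSC-derived FGOs from 460 over 856 to 1312 CPM and 6 dpp FGOs from 510 over 818 to 1327 CPM. Neighbouring FGO groups overlapped in their quartile ranges. That of in vivo FGOs, from 1173 CPM, lay above those of iPSC-derived and 6 dpp FGOs, which reached 1013 and 1014 CPM.

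Izumo1r had its highest level in in vivo FGOs, from 478 over 629 to 719 CPM. The medians of gonad-derived FGOs, 6 dpp FGOs, gonad-derived GROs and iPSC-derived FGOs followed at 461, 453, 451 and 441 CPM with overlapping quartile ranges. In vivo GROs ranged from 298 over 370 to 503 CPM and iPSC-derived GROs from 246 over 344 to 422 CPM. In vivo FGOs were the only group whose quartile range stood clear of its neighbour.

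Cd9, the tetraspanin that egg membranes need for fusion with sperm, ranged from 244 over 552 to 692 CPM in iPSC-derived GROs, from 450 over 545 to 681 CPM in gonad-derived GROs and from 383 over 445 to 592 CPM in in vivo GROs. In FGOs it ranged from 107 over 209 to 478 CPM in vivo, from 106 over 156 to 234 CPM in iPSC-derived, from 18.4 over 154 to 250 CPM in gonad-derived and from 85.6 over 133 to 186 CPM in 6 dpp oocytes. No cultured FGO exceeded 250 CPM, while the highest in vivo FGO lay within the range of in vivo GROs. Among GROs, the quartile range of in vivo oocytes lay below those of both cultured groups.

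Cd81, the second tetraspanin, was scarce. Its group medians ran from 0.568 CPM in iPSC-derived FGOs over 0.984 in gonad-derived FGOs, 1.81 in gonad-derived GROs, 1.87 in 6 dpp FGOs, 3.14 in iPSC-derived GROs and 4.40 in in vivo GROs to 5.20 CPM in in vivo FGOs. Quartile ranges of neighbours overlapped throughout. That of in vivo FGOs, from 4.08 CPM, still lay above those of iPSC-derived, gonad-derived and 6 dpp FGOs, which reached 1.10, 1.54 and 2.93 CPM. No read was found in 5 iPSC-derived FGOs, 2 gonad-derived FGOs and 1 gonad-derived GRO, and the highest value was 202 CPM in 6 dpp FGO 12. Per kb, pooled Cd81 of in vivo FGOs was 4.39 CPM, against 156 CPM for Cd9 and 413 CPM for Izumo1r in the same oocytes.

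The first question was what oocyte growth does to these genes in vivo and in culture. Ratios are log2 ratios of pooled CPM + 0.5, pooled meaning the summed reads of a group over its summed total, and a gene was counted as past 2-fold at 1 or -1. Of the 7 members, 1 was at least 2-fold lower in in vivo FGOs than in in vivo GROs, namely Zp2, where 13.2% of 13148 tested genes were, and 2 members, Zp2 and Zp3, had no overlap between oocytes, all FGOs lower, where 1.19% of genes had none. In gonad-derived oocytes 5 members, Zp1, Zp2, Zp3, Cd9 and Astl, were at least 2-fold lower in FGOs (9.98% of genes) and the same 5 did not overlap (2.62% of genes). In iPSC-derived oocytes 6 members were at least 2-fold lower (15.3% of genes), 1 of them, Zp2, past 4-fold (3.61% of genes), and the 5 named for gonad-derived oocytes did not overlap (5.62% of genes). No member was 2-fold higher in FGOs of any source, where 10.4%, 5.82% and 6.69% of genes were.

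Zp2 had a log2 ratio of -1.05 in vivo, -1.49 in gonad-derived and -2.08 in iPSC-derived oocytes, that is, 2.06-fold, 2.81-fold and 4.23-fold lower in FGOs. With TMM scaling its in vivo ratio was -0.97, short of 2-fold, and its ratio in iPSC-derived oocytes -1.94, short of 4-fold. Zp1 had ratios of -0.79, -1.16 and -1.77 in the same order. Zp3 had ratios of -0.84, -1.26 and -1.46. For all 3 zona genes the ratio was thus farthest from 0 in iPSC-derived and nearest to 0 in in vivo oocytes, and in all 3 sources that of Zp2 was the lowest of the 3. Astl had ratios of -0.70, -1.44 and -1.88, and Cd9 of -0.96, -1.86 and -1.78. The ratio of Cd9 in vivo was -1.31 when the oocytes that the study had left out of its own fits by size were left out, and -1.10 without the 4 oocytes named first and -1.11 without all 7. Cd81 had a ratio of -1.66 in iPSC-derived oocytes, with 19 of 24 FGOs below all GROs. Its ratio was 0.39 in vivo, or 0.01 without in vivo FGO 19 and -0.26 without all 7 oocytes, and 0.18 in gonad-derived oocytes, or -0.33 without gonad-derived FGO 18. The medians over all tested genes were -0.11 in vivo, -0.05 in gonad-derived and -0.11 in iPSC-derived oocytes.

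Genes of the marker lists were also compared between FGOs and GROs. Of the 8 oocyte markers, 1, 1 and 2 were at least 2-fold lower in FGOs in vivo, in gonad-derived and in iPSC-derived oocytes and 0 higher. Over all tested genes 13.2%, 9.98% and 15.3% were lower. The list medians were -0.37, -0.44 and -0.80. Gdf9, an oocyte growth factor, had ratios of -0.10, -0.54 and -1.18, in the same order of sources as the zona genes. Ddx4, a germ cell RNA helicase, had -1.82, -2.38 and -3.02, and Dppa3 had -0.16, -0.35 and -0.72. Zar1 had the reverse order, at -0.90, -0.33 and -0.15, and so had Npm2, at -0.97, -0.92 and -0.89. Bmp15 was higher in FGOs of every source, at 0.75, 0.27 and 0.21, and Kit and Ooep followed neither order. Of the granulosa markers that passed the filter, 5 of 11, 3 of 9 and 2 of 8 were 2-fold higher in FGOs and 0 lower. Over all tested genes 10.4%, 5.82% and 6.69% were higher. The list medians were 0.82, 0.65 and 0.48. Gja1 had ratios of 3.88 in vivo, or 2.80 without in vivo FGO 19, 3.26 in gonad-derived and 1.02 in iPSC-derived oocytes. As ratios of medians these were 2.04, 2.77 and 0.85. Cyp19a1, which encodes aromatase, had 2.79, 1.98 and 1.60. The part of these differences in the ratios of the members was not tested.

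Izumo1r had the opposite sign in every source, with ratios of 0.68 in vivo, 0.08 in gonad-derived and 0.42 in iPSC-derived oocytes. In vivo, 17 of 20 FGOs were above all GROs, and 14 of 24 iPSC-derived FGOs were above all iPSC-derived GROs. Of the gonad-derived FGOs, 2 were above and 2 below all gonad-derived GROs, and without gonad-derived FGO 19 the ratio was 0.13. Relative to Zp3 of the same oocyte, Izumo1r was higher in every FGO than in any GRO of its source, by a median of 2.84-fold in vivo, 2.58-fold in gonad-derived and 3.83-fold in iPSC-derived oocytes. The same held for 14.9%, 27.3% and 22.2% of all other genes tested. This ratio to Zp3 was added after its values had been seen.

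Set side by side, the growth ratio of a member in culture minus that in vivo was negative for 6 members, all but Cd81, in both cultured sources with and without in vivo FGO 19. A difference under 0 was found in 49.4% of all genes for gonad-derived and 54.7% for iPSC-derived oocytes. For gonad-derived oocytes it was -0.37 for Zp1, -0.44 for Zp2, -0.41 for Zp3, -0.61 for Izumo1r, -0.74 for Astl, -0.90 for Cd9 and -0.21 for Cd81. For iPSC-derived oocytes it was -0.98 for Zp1, -1.03 for Zp2, -0.62 for Zp3, -0.27 for Izumo1r, -1.18 for Astl, -0.82 for Cd9 and -2.05 for Cd81. Without in vivo FGO 19 the differences of Cd81 were 0.17 for gonad-derived and -1.67 for iPSC-derived oocytes. With the oocytes that the study kept by size, Cd9 had growth ratios of -1.31 in vivo, -1.87 in gonad-derived and -1.82 in iPSC-derived oocytes. Both differences of Cd9 were thus smaller in size than with all oocytes. The median of this difference over all genes was 0.01 for gonad-derived and -0.08 for iPSC-derived oocytes. The difference could not be tested, and by the paper the GROs of both cultured sources were larger than in vivo GROs.

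**Figure D2:**
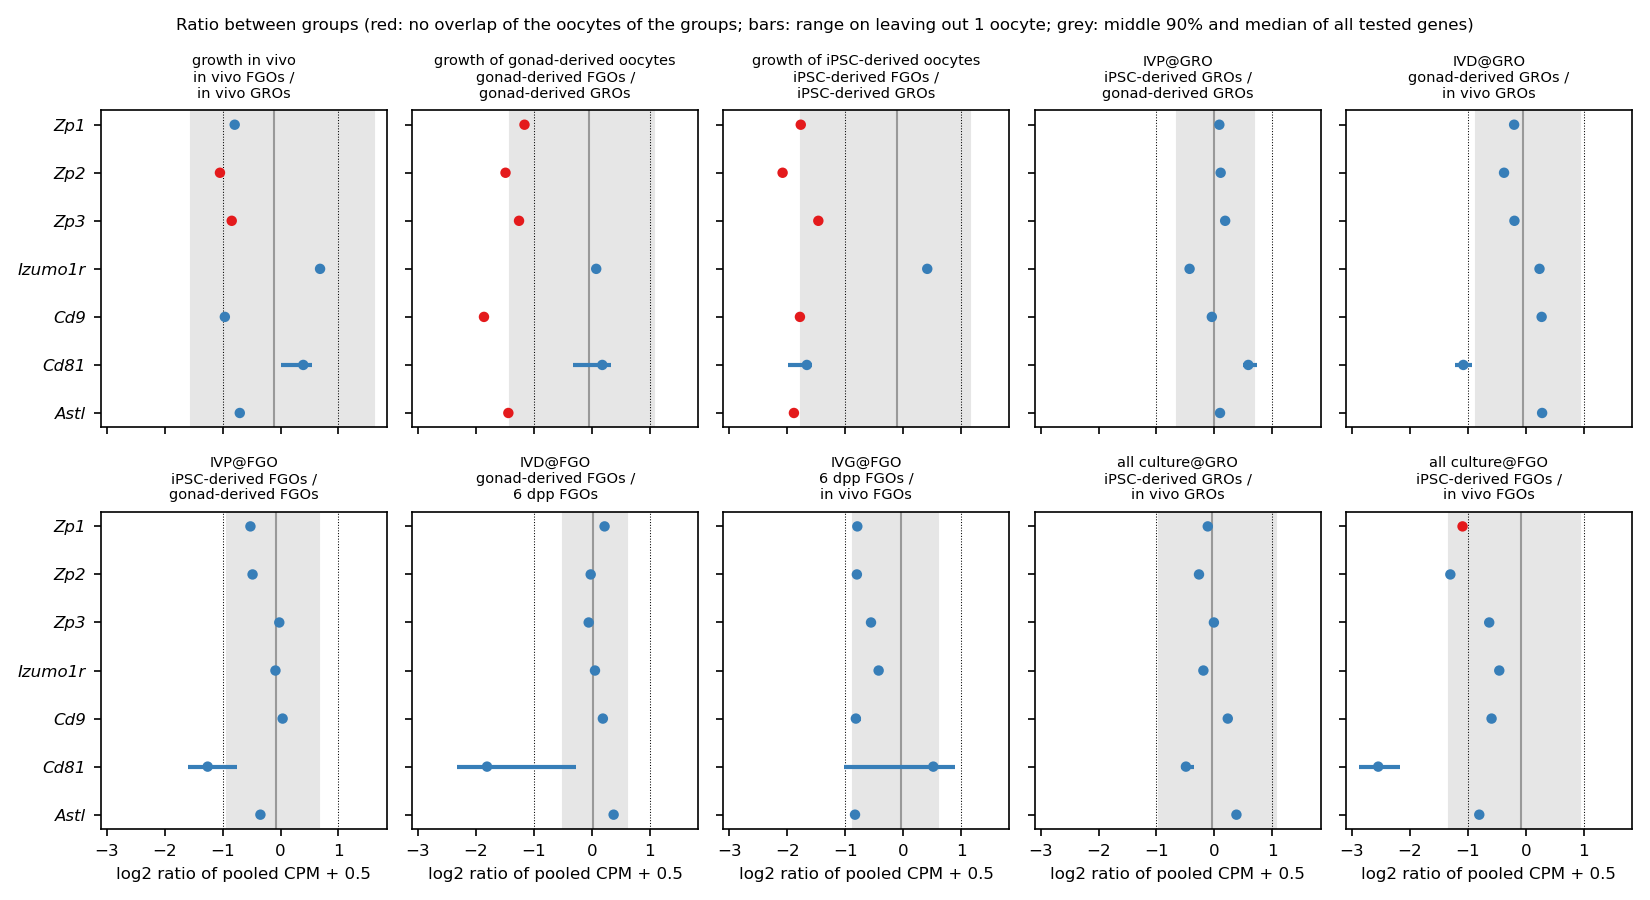
Log2 ratio of pooled CPM + 0.5 (horizontal axis) of each gene in the 10 comparisons, with bars for the range on leaving out each oocyte in turn, a grey band for the middle of all tested genes between their 5th and 95th percentiles and dotted lines at 2-fold. Red points mark genes whose groups had no overlap between oocytes, which were most frequent in the growth of gonad-derived and iPSC-derived oocytes with 5 genes each, and bars are long only for Cd81.

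The next question was what culture does at the GRO stage. The paper reports that GROs of both cultured sources were larger than in vivo GROs. The part of oocyte size in the ratios to in vivo GROs was not tested. The study models effects of IVP (iPSC-derived over gonad-derived oocytes) and IVD (gonad-derived over in vivo GROs). It presumes that the first difference is due to IVP, and it assumes that both effects add. All iPSC-derived oocytes came from 1 reporter line, so line and IVP cannot be told apart. At IVP@GRO, 0 of 7 members were past 2-fold, where 1.8% of genes were lower and 2.03% higher. Cd81 had the ratio farthest from 0, 0.58, with 4.15 CPM in iPSC-derived and 2.60 CPM in gonad-derived GROs, and 1 of 23 iPSC-derived GROs was above all gonad-derived GROs. Izumo1r had the lowest ratio, -0.43, and 17 of 23 iPSC-derived GROs were below all gonad-derived GROs. Zp1, Zp2, Zp3 and Astl had ratios between 0.09 and 0.19, and Cd9 one of -0.04. At IVD@GRO, Cd81 was past 2-fold at -1.08 (2.75% of genes were 2-fold lower), with 2.60 CPM in gonad-derived GROs (95% counting interval 2.35 to 2.86) and 6.03 CPM in in vivo GROs (5.66 to 6.42). Without in vivo GRO 24 its ratio was -0.93. The zona genes had ratios of -0.20 for Zp1, -0.37 for Zp2 and -0.19 for Zp3, whereas Izumo1r, Cd9 and Astl had 0.24, 0.28 and 0.28. No member was 2-fold higher (4.3% of genes). Of the 24 gonad-derived GROs, 13 had less Zp2 than any in vivo GRO, and 8 had more Cd9 and 9 more Astl than any in vivo GRO. With both steps together (iPSC-derived over in vivo GROs) 0 members were past 2-fold, where 4.38% of genes were lower and 5.61% higher. Astl had the highest ratio, 0.38, with 15 of 23 iPSC-derived GROs above all in vivo GROs.

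At the FGO stage most members were lower in cultured than in in vivo oocytes. At IVG@FGO, which sets 6 dpp FGOs against in vivo FGOs, 0 of 7 members were past 2-fold (3.12% of genes lower, 1.25% higher), and 6 ratios were negative, with -0.79 for Zp1, -0.80 for Zp2, -0.55 for Zp3, -0.42 for Izumo1r, -0.82 for Cd9 and -0.83 for Astl. A ratio under 0 was found in 54.5% of all genes. Of the 24 6 dpp FGOs, 18 had less Zp1, 16 less Zp3, 16 less Izumo1r and 15 less Zp2 than any in vivo FGO. Astl and Cd9 separated fewer oocytes, with 4 below all in vivo FGOs each. Cd81 had a ratio of 0.52, which was -1.01 without 6 dpp FGO 12, and 9 of the 24 6 dpp FGOs were below all in vivo FGOs.

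At IVD@FGO, gonad-derived over 6 dpp FGOs, 6 members had ratios between -0.05 and 0.38, the highest being that of Astl, and Cd81 alone was past 2-fold at -1.81 (0.948% of genes were 2-fold lower), and no member was 2-fold higher (1.64% of genes). Without 6 dpp FGO 12 the ratio of Cd81 was -0.27. Of the granulosa markers that passed the filter at IVD@FGO, 3 of 9 were at least 2-fold lower and 0 higher. Inhba, Gja1 and Hsd17b1 were at -3.06, -2.78 and -2.24, and as ratios of medians at -1.31, -0.49 and -1.65. Of the theca and stroma markers that passed the filter, 3 of 5 were at least 2-fold lower and 0 higher. At IVP@FGO only 2 passed, so the others passed here through 6 dpp FGOs, and the count is not read as a difference between groups. Cyp11a1 was at -2.19, or -0.06 as a ratio of medians. Cyp17a1 was at -1.54, with a median of 0 CPM in both groups. In sum these markers were at 187 CPM in 6 dpp FGO 12, against a group median of 2.89 CPM. Without gonad-derived FGO 19, Zp2 moved from -0.02 to 0.03 and Zp3 from -0.05 to 0.0048, so neither sign is settled at this step. IVP@FGO sets iPSC-derived over gonad-derived FGOs. By the paper's methods IVG was shorter for gonad-derived follicles, so its length and the cell line cannot be told apart from IVP there. At this step Zp1 had a ratio of -0.52 and Zp2 of -0.48, whereas Zp3 had one of -0.02. Cd81 was past 2-fold at -1.26 (3.9% of genes were 2-fold lower and 2.3% higher), and without gonad-derived FGO 18 it was at -0.75. Astl had -0.35, and Izumo1r and Cd9 were at -0.09 and 0.04, with Cd9 at -0.02 without gonad-derived FGO 19. With TMM scaling Zp3 had a ratio of 0.07 and Izumo1r one of 0.0020, so both signs at this step change with the scaling. Of the granulosa markers that passed the filter at IVP@FGO, 1 of 9 was at least 2-fold lower and 0 higher. It was Gja1 at -1.87, or -1.14 as a ratio of medians. Of the 8 oocyte markers, 1 was at least 2-fold lower and 0 higher, with a list median of -0.12. Kit was at -1.17, or -0.96 as a ratio of medians, and Gdf9 at -0.63. Dppa3 and Npm2 were at 0.58 and 0.21, and Bmp15, Ddx4, Zar1 and Ooep between -0.31 and -0.06. The part of these markers in the ratios of the members was not tested at either step.

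Over all culture steps, iPSC-derived against in vivo FGOs, 3 of 7 members were at least 2-fold lower, where 10.3% of 12972 genes were, and none was 2-fold higher (4.21% of genes). Zp1 was at -1.09, or 2.13-fold lower, and its oocytes did not overlap, as was the case for 2.04% of genes in this direction. With TMM scaling its ratio was -0.99 and so just short of 2-fold. Zp2 was at -1.30, or 2.46-fold lower, and 22 of 24 iPSC-derived FGOs were below all in vivo FGOs. Zp3, Astl, Cd9 and Izumo1r were lower by less, with ratios of -0.63, -0.80, -0.59 and -0.46, and 19, 6, 2 and 15 iPSC-derived FGOs below all in vivo FGOs. With the oocytes that the study kept by size, Cd9 was at -0.25 here and at -0.46 at IVG@FGO, each nearer to 0 than with all oocytes. Cd81 was at -2.54, past 4-fold as 1.18% of genes were, with 0.969 CPM (0.825 to 1.13) against 8.07 CPM (7.62 to 8.55). The median over all genes was -0.08. Cd81 was at -2.14 without the 4 oocytes named first, at -1.89 without all 7 and -1.79 with the oocytes the study kept, both short of 4-fold, and at -2.42 as a ratio of medians. Granulosa markers were lower in the same comparison. Of 10 that passed the filter, 5 were at least 2-fold lower and 0 higher, with a list median of -0.94, and Gja1, Hsd17b1 and Kitl were at -3.69, -2.15 and -1.14. Gja1 was at -2.61 without in vivo FGO 19 and at -2.13 as a ratio of medians. Of the 8 oocyte markers, 2 were at least 2-fold lower and 0 higher, with a list median of -0.52. Kit, Ddx4, Gdf9, Bmp15 and Ooep were at -1.10, -1.05, -0.94, -0.62 and -0.42. Zar1, Dppa3 and Npm2 were at 0.39, 0.27 and 0.01. The part of these markers in the ratios of the members was not tested.

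The balance between the zona genes was read within each oocyte, as the ratio of reads per kb, which does not depend on the library total. Zp2 stood to Zp3 at a median of 0.528 in in vivo GROs (range 0.429 to 0.591), 0.464 in gonad-derived GROs (0.383 to 0.524) and 0.439 in iPSC-derived GROs (0.377 to 0.499). In FGOs it was 0.445 in vivo (0.378 to 0.515), 0.381 in gonad-derived (0.312 to 0.828, the highest being oocyte 19), 0.375 in 6 dpp (0.318 to 0.441) and 0.281 in iPSC-derived oocytes (0.239 to 0.351). By medians, the ratio was lower in FGOs than in GROs of each source, and lower in cultured than in in vivo oocytes of each stage. The ranges of iPSC-derived and in vivo FGOs did not overlap. Of the 12971 genes other than Zp3 that were tested, 0.139% had such a lower ratio to Zp3 with no overlap. The ranges of iPSC-derived FGOs and iPSC-derived GROs did not overlap either, as for 0.397% of genes in this direction.

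Zp1 stood to Zp3 at medians between 0.257 and 0.301 in 6 of the groups and at 0.219 in iPSC-derived FGOs (range 0.158 to 0.283). Gonad-derived FGO 19 was at 2.41. Zp1 stood to Zp2 at 0.551 in in vivo GROs, 0.629 in gonad-derived GROs and 0.615 in iPSC-derived GROs, and at 0.662, 0.783 and 0.770 in the FGOs of the same sources. By these medians Zp1 thus took a larger part relative to Zp2 in FGOs than in GROs, whereas its part relative to Zp3 was 0.297 in in vivo GROs and 0.294 in in vivo FGOs. Deposited exonic lengths were 1.10 to 1.31 times the longest coding transcript of GENCODE, which shifts such a ratio alike in all groups and leaves the differences between groups unchanged.

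**Figure D3:**
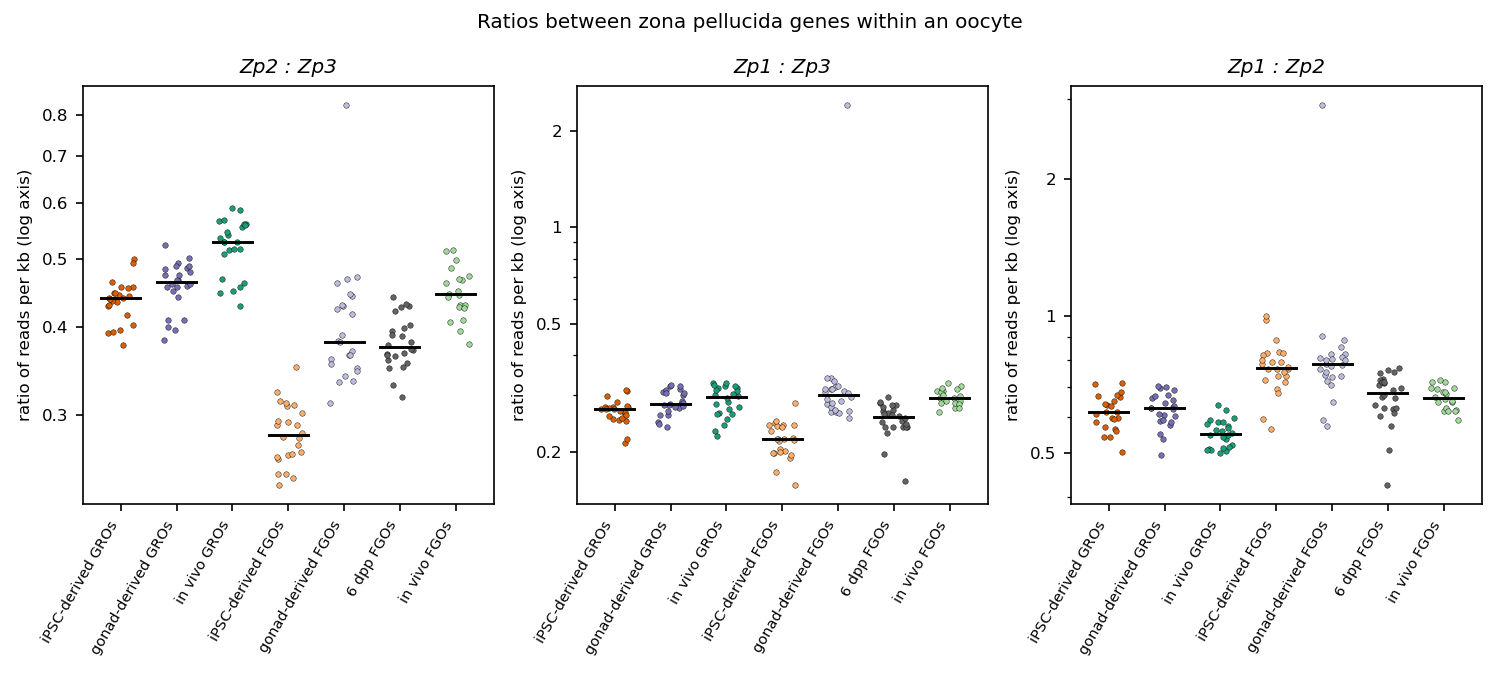
Ratio of reads per kb between zona genes (vertical axes, log scale) in each oocyte by group, with a line at each group median. For Zp2 over Zp3, iPSC-derived FGOs (0.239 to 0.351) lie below all in vivo FGOs (0.378 to 0.515), and gonad-derived FGO 19 stands apart in all 3 panels.

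The egg-membrane genes stood in another ratio in FGOs than in GROs. Izumo1r stood to Cd9 at a median of 0.806 in in vivo GROs, 0.811 in gonad-derived GROs and 0.616 in iPSC-derived GROs. In FGOs the median was 3.07 in vivo, 3.13 in gonad-derived, 2.85 in iPSC-derived and 3.47 in 6 dpp oocytes. The range of in vivo FGOs ran from 1.00, in oocyte 7, to 6.14, and overlapped that of in vivo GROs, whose highest oocyte was at 1.27. This pair was added after its values had been seen.

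Among FGOs, Cd81 was high in the oocytes that held most of Gja1. Across oocytes of a group, log2(CPM + 1) of Cd81 had a Pearson r with that of Gja1 of 0.89 in 24 6 dpp FGOs, 0.78 in gonad-derived FGOs, 0.76 in iPSC-derived FGOs and 0.65 in 20 in vivo FGOs, and of -0.12 to 0.50 in GROs. With the sum of the 12 matched granulosa markers, r of Cd81 was 0.87 in 6 dpp and 0.63 in in vivo FGOs. It was 0.27 in gonad-derived and -0.27 in iPSC-derived FGOs. Most of that sum was Bmpr1b and Cyp19a1. Their medians were 189 and 73.6 CPM in gonad-derived FGOs, where the median sum was 302 CPM. In iPSC-derived FGOs they were 178 and 61.6 CPM, where it was 269 CPM. The sum thus says little about the other markers. All r values here are descriptions over oocytes in which both values share a library. The 3 oocytes with most Cd81, at 202, 39.8 and 39.5 CPM, held 1208, 294 and 143 CPM of Gja1, and the summed granulosa markers were 1793, 587 and 574 CPM in them. Cd9 in these oocytes, at 165, 371 and 128 CPM, lay within the range of the other oocytes of their groups, and its r with Gja1 was between -0.08 and 0.37 over the 7 groups. The theca and stroma markers were also highest in 6 dpp FGO 12, at 187 CPM in sum against a group median of 2.89 CPM, and the blood markers were at 0 in all 6 dpp FGOs. Of the granulosa markers only Amhr2 had no reads in a group, the iPSC-derived FGOs. The part of other cells in the Cd81 values was not tested.

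**Figure D4:**
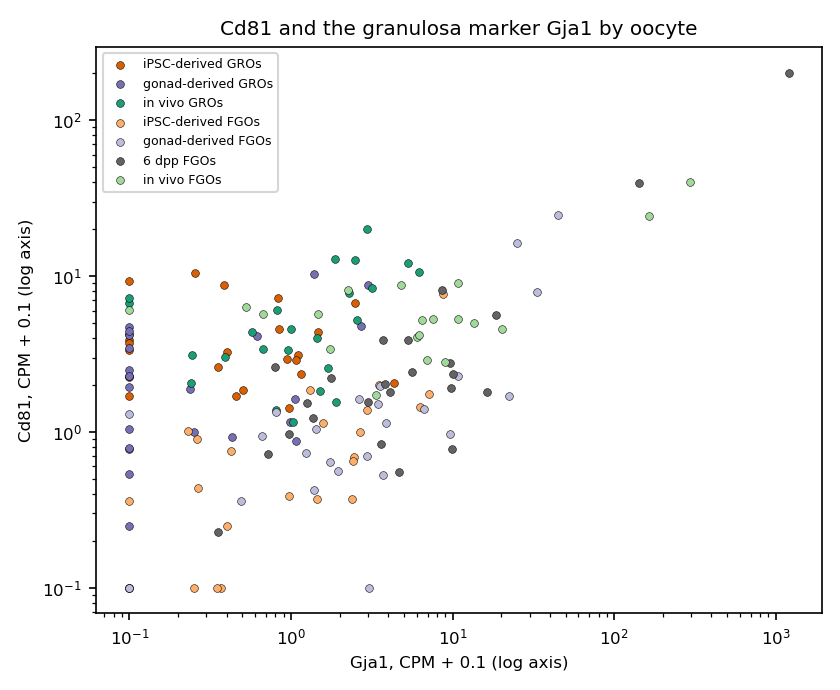
Cd81 against Gja1, both as CPM + 0.1 on log axes, 1 point per oocyte coloured by group. Oocytes with more than 100 CPM of Gja1 are all FGOs and hold 24.1 to 202 CPM of Cd81, while GROs hold up to 19.9 CPM of Cd81 with at most 6.10 CPM of Gja1.

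Most members varied less between in vivo GROs than the median gene. In in vivo GROs the SD of log2(CPM + 1) was between 0.16 and 0.22 for the 6 members other than Cd81, where the median over 7430 genes with a mean of at least 10 CPM was 0.32. In in vivo FGOs it was 0.64 for Cd9, higher than in 93.4% of genes, and 0.41 for Astl, higher than in 80.7%, beside 0.20 for Zp3 and 0.17 for Izumo1r. In gonad-derived FGOs, Zp3 had an SD of 0.82, and 0.18 without oocyte 19.

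The zona genes and Astl varied together. Over all oocytes, Zp1, Zp2, Zp3 and Astl had a Pearson r of 0.89 to 0.97 with each other, and Cd9 had 0.88 to 0.92 with these 4, or 0.47 to 0.62 with the group means removed and 0.33 to 0.54 without gonad-derived FGO 19 as well. With the group means removed, r was 0.81 for Zp1 and Zp2, 0.91 for Zp2 and Zp3, 0.65 for Zp1 and Zp3, 0.84 for Zp1 and Astl, 0.80 for Zp2 and Astl and 0.60 for Zp3 and Astl. Without gonad-derived FGO 19, r was 0.78 for Zp1 and Zp3 and 0.72 for Zp3 and Astl. Izumo1r had r of -0.24 to -0.08 with the zona genes and Astl over all oocytes. Its r with Zp3 with the group means removed was 0.55, and 0.05 when gonad-derived FGO 19 was left out. These values are over oocytes that share stage, source and depth, and are given as a description.

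The genes whose pattern over all oocytes was most like that of a member were searched among 7423 genes. They were Padi6 (r of 0.98), Nlrp14 and Nlrp5 for Zp1, Padi6 (0.97), Nlrp14 and Tle6 for Zp2, and Cct2 (0.96), Ergic3 and Ube2c for Zp3. For Astl they were Nlrp14 (0.94), Padi6 and Cct6a, and for Cd9 Ldhc (0.93), Naa20 and Pbdc1. For Izumo1r they included the less similar Lrrc36 (0.76) and Best2 (0.73). Those most like Cd81 were Ctsl (0.71), Malat1 (0.62) and Ftl1 (0.56).

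Factors known to drive the zona genes were read from a list of 7, of which 6 were matched. Between in vivo GROs and FGOs 4 of them were at least 2-fold lower in FGOs and 0 higher, where 13.2% of all tested genes were lower and 10.4% higher. Figla, the basic helix-loop-helix factor needed for zona gene transcription, was at 161 CPM in in vivo GROs and 58.0 CPM in in vivo FGOs, at 140 and 46.5 CPM in gonad-derived and at 137 and 44.3 CPM in iPSC-derived oocytes. Its growth ratios of -1.47, -1.57 and -1.61 thus lay closer together than those of the zona genes, and at the FGO stage it was at -0.39 for iPSC-derived over in vivo oocytes. Nobox, a homeobox factor of the oocyte with the highest pooled CPM of the list, was between 929 and 1442 CPM. Sohlh1 was at 18.3 CPM in in vivo GROs and 0.993 CPM in in vivo FGOs, and gonad-derived GROs, at 6.59 CPM, were lower than both in vivo and iPSC-derived GROs (18.1 CPM). Sohlh2 was at 84.6 CPM in iPSC-derived GROs, 23.8 CPM in gonad-derived GROs and 20.9 CPM in in vivo GROs, a ratio of 1.99 between the first and the last, and of 1.17 between the FGOs of these sources. Tcf3, which encodes the E12 and E47 partners of FIGLA, and Taf4b were 2-fold lower in in vivo FGOs, with ratios of -1.31 and -1.29.

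The other genes of the coat and of cortical granule release, such as secreted oocyte proteins, convertases and the fusion machinery of granules, were read from a list of 17, all matched. Between in vivo GROs and FGOs 3 were 2-fold higher and 1 lower, beside 10.4% and 13.2% of all tested genes, with a list median of -0.09 beside -0.11 for all genes. Fetub, which encodes fetuin-B, an inhibitor of ovastacin, was at 41.3 CPM in in vivo GROs and 196 CPM in in vivo FGOs, and at 96.4 and 273 CPM in iPSC-derived oocytes. It was higher in FGOs of all 3 sources, with ratios of 2.23, 1.22 and 1.50, while Astl was lower in all 3. Pcsk6, a proprotein convertase, was at 6.54 CPM in in vivo GROs and at 26.8 and 30.9 CPM in iPSC-derived and gonad-derived GROs. Its growth ratio was 1.73 in vivo but -0.71 in gonad-derived and -1.03 in iPSC-derived oocytes. Oosp1, an oocyte-secreted protein gene with the highest pooled CPM of the list, was between 1551 and 2887 CPM. Oosp3, of the same family, was at 519 CPM in iPSC-derived GROs and 1083 CPM in iPSC-derived FGOs, a ratio of 1.06, beside 0.90 in vivo and 0.40 in gonad-derived oocytes. Pcsk5, another convertase, was at 0.612 CPM in in vivo GROs and 5.35 CPM in in vivo FGOs.

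Of 13 tetraspanins and membrane partners, 10 passed the filter on low values in in vivo growth, and 3 were 2-fold lower and 0 higher in FGOs, beside 13.2% and 10.4% of all tested genes. Ptgfrn, which encodes a partner of CD9 and CD81, was at 23.5 CPM in in vivo GROs and 4.99 CPM in in vivo FGOs, and at 8.35 and 8.50 CPM in iPSC-derived and gonad-derived GROs. The median in vivo GRO held 11.1 CPM and the highest 73.6 CPM, and the median gonad-derived GRO held 8.53 CPM. Its ratios were -2.13 for growth in vivo and -1.41 at IVD@GRO, and as ratios of medians -1.64 and -0.36, the second short of 2-fold. Igsf8, another partner, had -1.04 for growth in vivo. Cd151, the tetraspanin with the highest pooled CPM of the list, was between 60.8 and 114 CPM. Itgb1, the beta 1 integrin, was between 29.8 CPM in iPSC-derived FGOs and 81.7 CPM in in vivo GROs, and was 2-fold lower in the growth of iPSC-derived oocytes only, at -1.13.

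Genes of the sperm side of fertilization served as a background. Of 13 in the list, 10 were matched, and Izumo1, the sperm ligand of JUNO, was at or below 0.222 CPM in every group. Spesp1, a gene of the sperm equatorial segment, stood apart, with 30.9 CPM in iPSC-derived GROs and 21.2 CPM in iPSC-derived FGOs and at most 0.070 CPM in the other 5 groups. Every iPSC-derived oocyte held at least 4.20 CPM of Spesp1, and no other oocyte held more than 0.573 CPM. Zp3r, named as a receptor of ZP3 on sperm, was at 2.06 CPM in in vivo GROs and 7.20 CPM in in vivo FGOs, and at 1.80 CPM in iPSC-derived FGOs.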

How the data were processed

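RNA of each oocyte was measured by Smart-seq2 with single-end reads. According to the study's methods, the authors aligned reads with STAR to GRCm38/mm10 with spike-in sequences, placing multimapping reads at random, and deposited raw counts of uniquely mapped reads per gene, made with QuasR over the exons of 1 randomly chosen transcript of a gene. The deposited table also holds an exonic length per gene, used here for levels per kb. Symbols came from RefSeq, for 21907 of 21950 identifiers, and gene positions from the GENCODE annotation of GRCm38.

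Counts of the oocytes of a group were summed to pooled CPM. Intervals are exact Poisson intervals (95%) and cover counting error only. Ratios used a pseudocount of 0.5 CPM. Genes above 1 CPM in at least 3 oocytes of the groups compared formed the background, and all 7 members passed in all 10 comparisons. The oocytes of a group count as 1 sample, so no p-value was computed. The calculation was tested on simulated counts. No 2 oocytes had identical counts.

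The members and gene lists were chosen with earlier results of these data known. From the 4 gene lists other than cell type markers, genes past 2-fold were named where the higher of both groups had 5 pooled CPM or more, and so were the gene of highest pooled CPM and the 3 genes most correlated with each member among those with a mean of at least 10 CPM. Izumo1 was given beyond this rule. Alternatives were TMM (edgeR 4.0.16) and DESeq2 1.42.0 scaling, an edgeR fit over oocytes for the size of ratios only, other pseudocounts, no filter, ratios of medians, the oocytes the study kept by size, and leaving out each oocyte. Python 3.11.15 with numpy 2.4.6, pandas 2.3.3 and scipy 1.17.1, and R 4.3.3, were used. Of the genes with the most similar patterns, 1 is not reported here.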

Additional observations from a re-analysis of the deposited data

How the results depend on the processing

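Of the 70 ratios of members, 60 kept their sign and 63 their side of 2-fold under every alternative run, and of the 18 past 2-fold, 13 kept both. For growth in vivo, 1 member was past 2-fold, against 0 with TMM scaling, DESeq2 size factors or the edgeR coefficients (Zp2 at -0.97, -0.96 and -0.99), and 2 with ratios of medians, with the oocytes the study kept or without the 4 or the 7 oocytes that stood apart, where Cd9 joined at -1.09, -1.31, -1.10 and -1.11. Leaving out each oocyte gave 1 to 2 (Cd9 at -1.04 without in vivo FGO 22). The calls of Cd81 at the single culture steps were less stable. A pseudocount of 2 CPM gave 0 members in place of 1 for IVD@GRO and for IVP@FGO. Ratios of medians gave 0 for IVP@FGO, 0 for IVD@FGO and 1 in place of 0 for IVG@FGO, where Cd81 was at -1.26, and the oocytes the study kept also gave 1, with Cd81 at 1.27. IVD@FGO had 0 without the 4 or the 7 oocytes, with Cd81 at -0.23 and -0.09. Without the 7, IVP@FGO also had 0, with Cd81 at -0.78, and IVG@FGO had 1, with Cd81 at -1.03. Leaving out each oocyte gave 0 to 1 for the 4 single steps IVG@FGO, IVD@FGO, IVD@GRO and IVP@FGO, the first through Cd81 at -1.01 without 6 dpp FGO 12, where all oocytes gave 0.52. Relative to CPM, TMM and DESeq2 scaling moved all ratios by up to 0.14, in the growth of iPSC-derived oocytes. With no filter on low values the share of genes 2-fold lower was 7.98% for growth in vivo, 5.94% for gonad-derived and 9.18% for iPSC-derived growth. Leaving out the 4 or the 7 oocytes and the GENCODE lengths were alternatives chosen after seeing the data. No paired analysis was possible because no test was run and the labels do not say whether a number in the oocyte titles marks a shared animal, culture or plate. Depth limits Cd81 most, with 161 pooled reads in iPSC-derived FGOs.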
